A study of Mus musculus with 6 samples.

Results

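The nuclear genes for the subunits of the mitochondrial respiratory chain were compared in bone marrow-derived mast cells (BMMCs) from the BALB/c and the C57BL/6 strain. Members were chosen by symbol. They are the genes whose symbols start with Ndufa, Ndufb, Ndufc, Ndufs or Ndufv (complex I), Uqcr (complex III), Atp5 (complex V) or Cox with a number from 4 to 8 and a letter (complex IV), with Sdha, Sdhb, Sdhc and Sdhd (complex II), Cyc1 (complex III) and Cycs, the carrier cytochrome c. Pseudogenes named with -ps and the Ndufaf assembly factors were left out. The rule gave 91 of the 35297 genes in the transcript tables, and 83 of them were among the 12461 genes with enough reads to be tested. Subunits encoded in mitochondrial DNA were not analysed here.

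The study asked how mast cells of these inbred strains differ, with IL-33 processing as its main subject. BMMCs were grown in vitro from bone marrow of naive wild type mice with stem cell factor, TGF-β1, IL-9 and IL-3 in the medium, and RNA was taken on day 20 with no further stimulus. There were 3 BALB/c libraries (S9, S10 and S11) and 3 C57BL/6 libraries (S12, S13 and S14), called biological replicates in the study. The labels do not say whether they come from separate mice, so p-values measure the spread between these libraries. The BMMCs are cultured cells checked for purity with c-Kit and FcεRI, and they are not mast cells taken from a tissue.

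The respiratory chain sits in the inner mitochondrial membrane. Complexes I and II pass electrons from NADH and succinate to ubiquinone, complex III hands them to cytochrome c, complex IV gives them to oxygen, and complex V uses the proton gradient so made to form ATP. Most subunits come from nuclear genes, and several subunits of complex IV exist as variants that are used in muscle, testis or low oxygen. In mast cells, mitochondria are known to supply ATP and take up calcium during degranulation.

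Promoter windows of 300 bases are shown for 6 members, because these are the genes on which the results below turn. Cox7a1 and Cox6b2 passed a 2-fold difference in opposite directions, and Cox7a2l was the one other member called higher in C57BL/6 BMMCs in every setting tried. Cox6a1, Cox8a and Cycs were lower in C57BL/6 BMMCs. They were chosen partly because their windows carry motifs of factors known to act on respiratory genes. The motif matches in these windows were thus fixed by the choice, and the windows of other lower members are not shown. Each window runs 5′ to 3′ on the strand of the gene, from 250 bases before its start in RefSeq. The sequences are RefSeq's, from a table of build GRCm38.p6, and each was found once in GRCm39, whose coordinates are given. Capitals mark exact matches, on either strand, to GCATGCGC (the NRF1 motif), CCGGAAG (the motif of GABP and other ETS factors), AAGATGGC (YY1) and GGGCGG (SP1). Cox7a1 lies at chr7:29883346-29883645 (forward strand), Cox6b2 at chr7:4756044-4756343 (reverse strand), Cox7a2l at chr17:83821713-83822012 (reverse strand), Cox6a1 at chr5:115486968-115487267 (reverse strand), Cox8a at chr19:7194932-7195231 (reverse strand) and Cycs at chr6:50543500-50543799 (reverse strand).
Cox7a1: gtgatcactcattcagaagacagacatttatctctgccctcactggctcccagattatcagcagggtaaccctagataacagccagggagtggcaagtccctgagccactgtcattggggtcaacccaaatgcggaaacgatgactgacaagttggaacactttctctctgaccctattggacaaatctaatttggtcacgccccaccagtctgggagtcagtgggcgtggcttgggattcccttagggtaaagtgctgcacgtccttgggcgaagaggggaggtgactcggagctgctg
Cox6b2: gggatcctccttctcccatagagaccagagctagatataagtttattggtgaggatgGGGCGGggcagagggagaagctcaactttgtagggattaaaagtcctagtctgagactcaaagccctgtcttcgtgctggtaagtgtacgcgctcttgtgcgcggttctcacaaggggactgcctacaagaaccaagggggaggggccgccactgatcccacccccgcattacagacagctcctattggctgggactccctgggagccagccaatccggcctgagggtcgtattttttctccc
Cox7a2l: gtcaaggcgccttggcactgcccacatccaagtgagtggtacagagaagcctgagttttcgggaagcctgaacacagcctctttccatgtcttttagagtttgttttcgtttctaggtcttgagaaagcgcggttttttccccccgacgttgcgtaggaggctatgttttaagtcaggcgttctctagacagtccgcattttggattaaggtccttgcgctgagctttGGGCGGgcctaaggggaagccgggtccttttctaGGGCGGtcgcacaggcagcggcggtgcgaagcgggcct
Cox6a1: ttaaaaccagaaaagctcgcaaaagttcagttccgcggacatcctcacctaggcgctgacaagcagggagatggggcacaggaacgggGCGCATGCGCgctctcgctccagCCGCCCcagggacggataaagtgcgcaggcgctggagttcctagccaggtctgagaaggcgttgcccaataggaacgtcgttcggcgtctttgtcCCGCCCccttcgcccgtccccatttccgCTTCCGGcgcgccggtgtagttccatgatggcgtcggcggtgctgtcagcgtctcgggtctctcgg
Cox8a: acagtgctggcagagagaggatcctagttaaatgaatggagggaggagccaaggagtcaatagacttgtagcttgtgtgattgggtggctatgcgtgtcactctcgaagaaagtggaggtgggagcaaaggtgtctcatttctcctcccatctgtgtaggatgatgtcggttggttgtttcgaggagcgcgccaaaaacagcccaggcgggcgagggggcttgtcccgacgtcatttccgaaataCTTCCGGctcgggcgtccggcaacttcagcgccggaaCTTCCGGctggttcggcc
Cycs: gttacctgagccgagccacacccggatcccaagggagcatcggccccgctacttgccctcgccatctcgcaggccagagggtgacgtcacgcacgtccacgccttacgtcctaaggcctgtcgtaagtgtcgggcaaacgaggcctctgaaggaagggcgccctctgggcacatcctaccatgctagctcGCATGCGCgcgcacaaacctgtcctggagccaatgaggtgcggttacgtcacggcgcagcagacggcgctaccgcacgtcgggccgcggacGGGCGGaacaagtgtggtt

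No motif letters were found in the Cox7a1 window. The Cox6b2 window held 1 match to the SP1 motif, at bases 58 to 63, and the Cox7a2l window held 2. In the Cox6a1 window 2 matches to the NRF1 motif overlapped, one on each strand, at bases 89 to 98, an ETS match stood at bases 235 to 241, and there were 2 SP1 matches. The Cox8a window held 2 ETS matches, and the Cycs window an NRF1 match at bases 191 to 198 and an SP1 match.

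Promoter windows were found for 72 of the 91 members, 77 windows in all, and Uqcrq is among those without one. The NRF1 motif was present in 14.3% of these windows, against 2.71% of all 32851 promoter windows and 5.14% of the 12762 windows of genes tested. The YY1 motif was present in 10 of the 77, against 2.75% of all windows and 4.46% of those of genes tested. It stood in 7 of the 37 complex I windows (18.9%) and in 3 of the 18 complex V windows (16.7%). The ETS motif was found in 22.1%, against 8.86% and 17.6%. The SP1 motif was found in 40.3%, above the 35.7% of all windows and below the 60.6% of windows of genes tested. At least 1 of the NRF1, ETS and YY1 motifs stood in 41.6% of member windows, 13.3% of all windows and 24.9% of windows of genes tested. By complex, such windows numbered 14 of 37 in I, 2 of 3 in II, 3 of 5 in III, 3 of 13 (23.1%) in IV and 9 of 18 in V. These are shares of exact letter matches and were not tested.

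Between 28273365 and 37100869 reads per library were assigned to genes. TMM factors, which correct library sizes for genes that take very many reads, differed by strain. They lay between 1.048 and 1.055 in the BALB/c libraries and between 0.940 and 0.959 in the C57BL/6 libraries. Mast cell markers other than Hdc were abundant in every library. All 10 genes summed to 30973 to 33895 CPM (read counts scaled to a common library size after this correction) in BALB/c and 34061 to 36190 CPM in C57BL/6. Of the 10, 6 were higher (60%, against 27.0% of all genes tested) and 1 was lower (10%, against 25.9%) in C57BL/6 at an adjusted p under 0.05 (edgeR). Mean levels in BALB/c and C57BL/6 were 1032 and 5166 CPM for Tpsb2, 9895 and 7346 CPM for Cma1, and 2.35 and 5.34 CPM for Hdc. Some markers of other cells moved with strain. The sum over 8 basophil genes was 406 to 418 CPM in BALB/c and 512 to 523 CPM in C57BL/6, that over 8 macrophage genes 0.705 to 1.63 and 13.3 to 13.9 CPM, with C1qa, C1qb, C1qc and Csf1r at 0 reads in all libraries, and that over 6 erythroid genes 0.266 to 0.534 and 6.04 to 6.19 CPM, with Hba-a2 at 0. Of the 8 basophil genes, 5 were higher (62.5%, against 27.0% of all genes tested) and 1 was lower (12.5%, against 25.9%) in C57BL/6 at an adjusted p under 0.05 (edgeR). Mcpt8 had the largest rise in CPM, with a mean of 183 against 84.0 CPM. Cebpa, Ccl9 and Prss34 were near 0 in BALB/c, with means of 9.70 against 0.104, 10.8 against 0.224 and 6.70 against 0.118 CPM. Cd200r3, the most abundant of the 8 genes, and Il18r1 had lower means in C57BL/6, at 297 against 310 CPM and 9.47 against 13.8 CPM. Adgre1 and Cd68 made up nearly all of the macrophage sum. The erythroid sum in C57BL/6 was nearly all Hbb-bt (5.82 to 6.05 CPM, and 0 reads in BALB/c), while Hba-a1 and Alas2 had lower mean levels in C57BL/6, at 0.105 against 0.279 CPM and 0.0198 against 0.0924 CPM. No neutrophil gene exceeded 4 reads and no eosinophil gene 15 reads in a library, and 8 T or NK cell genes summed to 4.80 to 5.65 and 4.44 to 5.10 CPM, with Cd3e, Cd3d, Cd3g, Cd4 and Nkg7 at 0. The part of these differences in the results below was not tested.

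Most subunit genes had slightly lower transcript levels in C57BL/6 than in BALB/c BMMCs. Of the 83 tested members, 53 were lower in C57BL/6 (63.9%, against 25.9% of all genes tested) and 3 were higher (3.61%, against 27.0% of all genes tested), at an adjusted p under 0.05 in edgeR's quasi-likelihood test. The differences were small. The log2 ratio of the strains (log2FC, negative where C57BL/6 is lower) had a median of -0.18 over the tested members, with a middle range (between the quartiles) of -0.25 to -0.08, and -0.01 over all genes tested, with a middle range of -0.23 to 0.25. With a 2-fold change as a further criterion, Cox6b2 was the 1 member higher in C57BL/6 and Cox7a1 the 1 member lower, where 7.73% and 5.54% of all genes tested passed in these directions. In 73 of the 83 members the log2FC was below 0, as in 6364 of all 12461 genes tested. In a bulk culture, fewer cells that express a gene and less RNA per cell cannot be told apart.

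The libraries themselves showed the same order. In 55 members (66.3%) all C57BL/6 values were below all BALB/c values, as in 30.8% of all genes tested, and in 5 members (Cox6b2, Cox7a2l, Ndufa6, Ndufb1 and Sdha) the C57BL/6 values were above, as in 31.1% of all genes tested. When each library was set against the mean of the 6, the median log2 deviation over the tested members was 0.01, 0.10 and 0.12 in S9, S10 and S11, and -0.11, -0.08 and -0.08 in S12, S13 and S14. S9 was the BALB/c library nearest to the C57BL/6 libraries, and the strains did not overlap. Without S9, the number of members lower in C57BL/6 was 60, and without S12 it was 43. For a single value, 3 libraries against 3 cannot reach an exact permutation p below 0.1, so all tests here rest on the spread estimated over all genes.

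**Figure D1:**
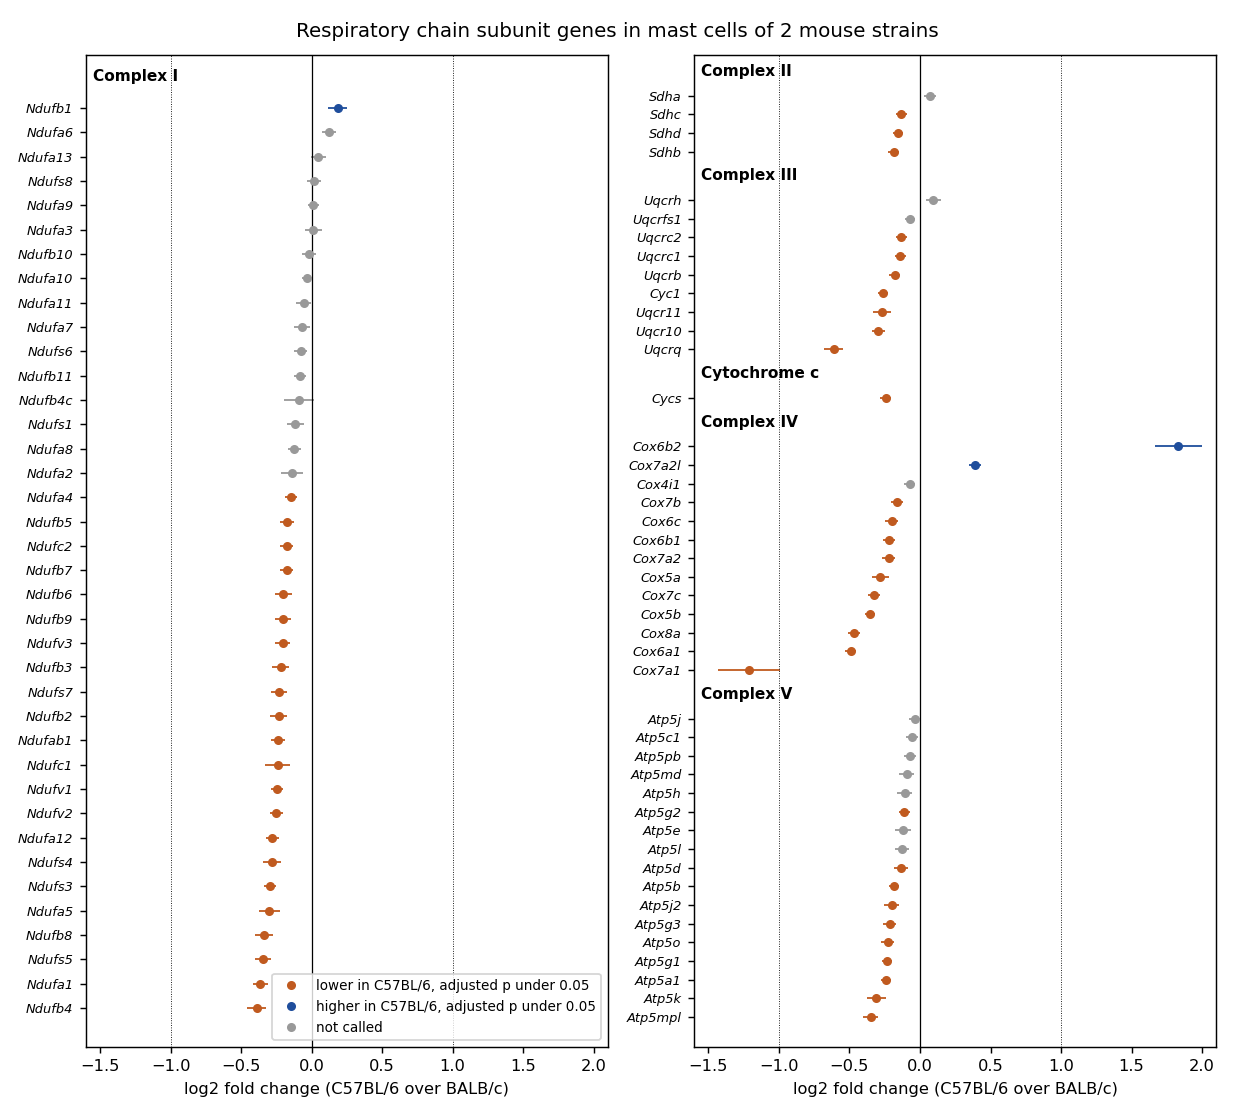
The log2FC, C57BL/6 over BALB/c (horizontal axis) for 82 of the 83 tested subunit genes, listed by complex, with the standard error (SE) as bars. Orange points are genes lower in C57BL/6 and blue points genes higher at an adjusted p under 0.05 (edgeR), grey points were not called, and dotted lines mark 2-fold. The 53 orange points lie mostly between 0 and -0.5, with Cox7a1 at -1.21 and Cox6b2 at 1.83 apart from the others.

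The subunit genes are short and abundant, properties the rule did not use. Their median level was 167 TPM (a level divided by transcript length and scaled to a common total) against 10.8 TPM over all genes tested, 60 of the 83 exceeded 100 TPM, and their median effective length was 501 bases against 2634. For a comparison within such genes, 540 other tested genes of at least 50 TPM and at most 1000 bases were set beside the 62 members of that kind. Of the 540, 154 were lower (28.5%) and 178 higher (33.0%) in C57BL/6, with a median log2FC of -0.02. Of the 62 members, 40 were lower and 2 higher, with a median of -0.18. Replicate libraries were close, with a median coefficient of variation over the members of 4.31% in BALB/c and 3.04% in C57BL/6.

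**Figure D2:**
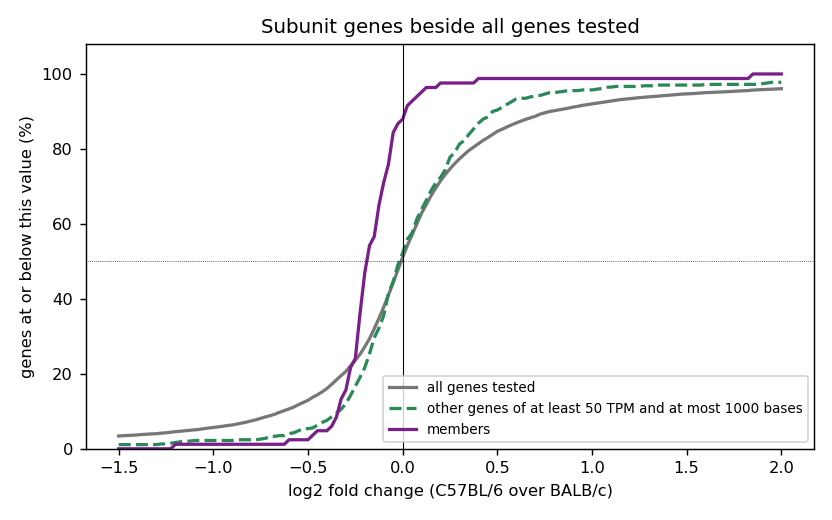
Share of genes (vertical axis, %) with a log2FC (C57BL/6 over BALB/c) at or below the value on the horizontal axis, for the 83 tested members (purple), 540 other abundant short genes (dashed green) and all 12461 genes tested (grey). The purple curve crosses 50% at -0.18, while the others cross near 0 (-0.02 and -0.01).

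Summed over the members, subunit transcripts came to 20338, 21049 and 21207 TPM in the BALB/c libraries and to 16279, 16130 and 16449 TPM in the C57BL/6 libraries. The means were 20865 ± 463 and 16286 ± 159 TPM (SD, n = 3), a difference of -21.9%. On the CPM scale the sums were 8467 ± 262 and 7595 ± 102 (SD, n = 3), a difference of -10.3%. The TPM values carry no correction for abundant genes, and with plain library sizes the median of all genes moved by -0.14 on the log2 scale. Relative to the median of all genes, the members' median stayed between -0.21 and -0.16 in all alternative settings, leave-outs included. All complexes had lower sums in C57BL/6 on either scale. The TPM sums differed by -19.5% for complex I, -18.3% for complex II, -20.9% for complex III, -26.1% for complex IV and -21.3% for complex V, and the CPM sums by -8.82%, -4.53%, -11.4%, -12.1% and -10.7% in that order. No complex had overlapping sums between the strains on either scale.

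**Figure D3:**
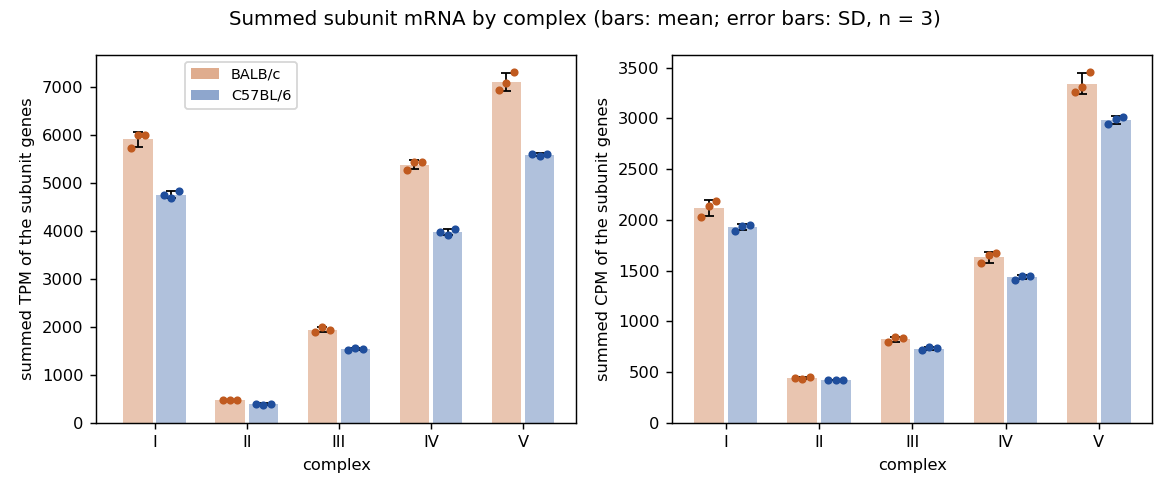
Summed TPM (left) and summed CPM (right) of the subunit genes of each complex (horizontal axis) in BALB/c (orange) and C57BL/6 (blue) BMMCs. Bars are means, error bars the SD of 3 libraries, and points the libraries. Every blue point lies below every orange point within a complex, and the difference in percent is widest for complex IV on the TPM scale (-26.1%, from 5379 to 3976 TPM).

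Complex I, the NADH dehydrogenase, has 42 members, of which 39 were tested. In C57BL/6 BMMCs 22 were lower (56.4%, against 25.9% of all genes tested) and 1 was higher (2.56%, against 27.0%), and the median log2FC was -0.18. The core subunits include those that carry the iron-sulphur clusters and the flavin. Among the core subunits, Ndufs3, Ndufs7, Ndufv1 and Ndufv2 were lower, and Ndufs1 and Ndufs8 were not called, at log2FC values of -0.11 and 0.02. The most abundant member of complex I was Ndufa4, with 374 TPM on average over the 6 libraries, and the least abundant tested one was Ndufa11, with 19.4 TPM at an effective length of 2478 bases.

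Among the accessory subunits, which surround the core, Ndufb4 showed the largest fall. Its level was 29.8, 30.4 and 31.9 CPM in the BALB/c libraries and 21.8, 23.2 and 25.3 CPM in the C57BL/6 libraries. The libraries did not overlap, and the log2FC was -0.39 (standard error, SE, 0.06, adjusted p = 0.000885, edgeR). Ndufb4 shares sequence with Ndufb4c, a copy with 295 to 481 reads per library whose log2FC was -0.09 (adjusted p = 0.494, edgeR), and with Ndufb4b, which had reads only in S13. With the reads of the 3 summed, the value was -0.30 (adjusted p = 0.00156, edgeR).

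Ndufa1, a small membrane subunit encoded on the X chromosome, was at 59.2, 65.8 and 65.7 CPM in BALB/c and 50.4, 46.7 and 51.1 CPM in C57BL/6. Its log2FC was -0.36 (SE 0.06, adjusted p = 0.000517, edgeR), and the strains did not overlap. Ndufa4, which is now counted with complex IV because it travels with that enzyme, was lower by a log2FC of -0.15 (adjusted p = 0.0190, edgeR). Its adjusted p rose to between 0.0514 and 0.0788 when S9, S11, S12 or S13 was left out, past the threshold. Its variant Ndufa4l2, which low oxygen induces in other cells, had 2 reads in S14 and none elsewhere. Ndufa11, a membrane accessory subunit, was not called (log2FC -0.06, adjusted p = 0.384, edgeR).

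Ndufb1 was the 1 complex I member called higher in C57BL/6. It was at 32.7, 37.7 and 37.9 CPM in BALB/c and 42.9, 39.4 and 40.8 CPM in C57BL/6, a log2FC of 0.18 (SE 0.07, adjusted p = 0.0391, edgeR). This call depended on scaling. Ndufb1 did not pass with plain library size (0.04), under DESeq2 (0.16 and 0.19, with and without an offset for length) with upper-quartile normalization (0.16), with unmatched transcripts kept (0.18) or without S9, S12 or S14, and on the TPM scale its value was -0.02. It overlaps Cpsf2 on the other strand. The others called lower were Ndufa5, Ndufa12, Ndufab1, Ndufb2, Ndufb3, Ndufb5, Ndufb6, Ndufb7, Ndufb8, Ndufb9, Ndufc1, Ndufc2, Ndufs4, Ndufs5 and Ndufv3, at log2FC values between -0.34 and -0.18. Not called were also Ndufa2, Ndufa3, Ndufa6, Ndufa7, Ndufa8, Ndufa9, Ndufa10, Ndufa13, Ndufb10, Ndufb11 and Ndufs6, between -0.14 and 0.12.

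Complex II, succinate dehydrogenase, is part of the citric acid cycle as well as of the chain. Its iron-sulphur subunit Sdhb was at 83.7, 83.3 and 83.7 CPM in BALB/c and 75.3, 70.8 and 73.9 CPM in C57BL/6, a log2FC of -0.19 (SE 0.04, adjusted p = 0.00247, edgeR). The membrane anchors Sdhd and Sdhc followed with -0.16 (adjusted p = 0.00571, edgeR) and -0.13 (adjusted p = 0.0177, edgeR), and no library of one strain overlapped those of the other for any of these genes. Sdhc did not pass without S12 (adjusted p = 0.0611, edgeR) or S13 (0.0696).

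The flavoprotein Sdha, which holds the catalytic site, was the 1 complex II gene that was not called lower. It was at 170, 158 and 170 CPM in BALB/c and 172, 177 and 174 CPM in C57BL/6, a log2FC of 0.07 that did not pass (adjusted p = 0.182, edgeR). With plain library size the value was -0.07, and with limma on log2(TPM + 1) it was -0.10 with an adjusted p of 0.0490, so the sign for this gene rests on the scaling. Per length, the 4 genes were close, between 84.3 TPM for Sdha and 122 TPM for Sdhc.

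Complex III, the cytochrome bc1 complex, had 7 of 9 members lower in C57BL/6 (77.8%, against 25.9% of all genes tested) and none higher (against 27.0%). The median log2FC was -0.18. Uqcrq, a small subunit near the ubiquinone site, showed the largest fall after Cox7a1. It was at 88.9, 102 and 106 CPM in BALB/c and 60.9, 66.3 and 66.8 CPM in C57BL/6. No C57BL/6 library came near the lowest BALB/c library, and the log2FC was -0.61 (SE 0.07, adjusted p = 6.51e-05, edgeR), a level 34.6% lower. Over all alternative settings it lay between -0.79 and -0.56. In GENCODE's annotation of GRCm39, Uqcrq lies at chr11:53318749-53322047 on the reverse strand and overlaps Gdf9 on the other strand. The libraries were made with a stranded kit, and whether the counting used the strand is not given in the sources used here.

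Cyc1, the haem-bearing cytochrome c1, was at 84.3, 84.9 and 83.3 CPM in BALB/c and 69.4, 71.4 and 69.9 CPM in C57BL/6. The spread within each strain was small beside the gap, with a log2FC of -0.26 (SE 0.03, adjusted p = 0.000214, edgeR). Uqcr10, Uqcr11, Uqcrb, Uqcrc1 and Uqcrc2 were lower by log2FC values between -0.30 and -0.13. Uqcrh, the hinge subunit and the most abundant member of complex III per length (494 TPM), was not called, at 0.10 (adjusted p = 0.152, edgeR), and its sign turned to -0.05 with plain library size and -0.09 on the TPM scale. The iron-sulphur protein Uqcrfs1 was not called either, at -0.07.

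Cytochrome c itself, Cycs, carries electrons from complex III to complex IV and is also known as a trigger of apoptosis when it leaves the mitochondrion. Its transcripts stood at 111, 114 and 121 CPM in BALB/c and 97.5, 98.6 and 95.6 CPM in C57BL/6. The strains did not overlap, and the log2FC was -0.24 (SE 0.04, adjusted p = 0.00107, edgeR). The window printed above for Cycs holds an NRF1 motif, as does that of Cox6a1, and both windows were chosen partly for their motifs.

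Complex IV, cytochrome c oxidase, held the members with the widest differences in both directions. Of its 18 members 13 were tested, with a median log2FC of -0.22. In C57BL/6 BMMCs 10 were lower (76.9%, against 25.9% of all genes tested) and 2 were higher (15.4%, against 27.0%). Cox6a1, the non-muscle form of subunit VIa and the most abundant of all members per length (629 TPM), was at 192, 199 and 193 CPM in BALB/c and 133, 141 and 142 CPM in C57BL/6. That is a log2FC of -0.49 (SE 0.04, adjusted p = 9.55e-06, edgeR), with a wide gap between the strains. Cox8a, the non-muscle form of subunit VIII, showed the same picture, at 182, 189 and 187 CPM against 134, 129 and 141 CPM and -0.47 (SE 0.04, adjusted p = 2.29e-05, edgeR). Cox5b, which binds zinc on the matrix side, was at 150, 151 and 155 CPM in BALB/c and 119, 118 and 120 CPM in C57BL/6, or -0.35 (SE 0.04, adjusted p = 3.54e-05, edgeR).

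Cox6b1, the somatic form of the subunit that faces cytochrome c, was lower by -0.22 (adjusted p = 0.00146, edgeR), Cox7a2, the widespread form of subunit VIIa, by -0.22 (adjusted p = 0.00300, edgeR) and Cox7b by -0.16 (adjusted p = 0.00906, edgeR). Cox5a, Cox6c and Cox7c were lower by log2FC values between -0.33 and -0.20. Cox4i1, the common form of the regulatory subunit IV, was the 1 tested complex IV gene that was not called. It was at 237, 239 and 251 CPM in BALB/c and 226, 237 and 230 CPM in C57BL/6, and its log2FC was -0.07 (SE 0.04, adjusted p = 0.159, edgeR). The highest C57BL/6 library lay just below the lowest BALB/c library. With plain library size it was -0.22 and with limma on log2(TPM + 1) -0.26, and it passed in both. The difference between this gene and Cox6a1 was not tested.

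The tissue variants of complex IV stood apart. Cox7a1, the heart and skeletal muscle form of subunit VIIa, was covered by 45, 58 and 65 reads in BALB/c and by 26, 18 and 25 reads in C57BL/6. In CPM these were 1.41, 1.95 and 1.73 against 0.814, 0.665 and 0.706, with no overlap between the strains. The log2FC was -1.21 (SE 0.22, adjusted p = 0.00150, edgeR), a level 2.32-fold higher in BALB/c. Between -1.39 and -1.11 over the alternative settings, the value passed in each. Per length Cox7a1 was rare, at 13.1 ± 1.91 TPM in BALB/c and 4.90 ± 0.498 TPM in C57BL/6 (SD, n = 3), beside 217 and 164 TPM for Cox7a2. Cox7a1 lies at chr7:29883569-29885503 (GRCm39, forward strand), overlapping a non-coding gene on the other strand, and is annotated as protein-coding.

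Cox6b2, the testis form of subunit VIb, went the other way. It had 48, 31 and 46 reads in BALB/c and 134, 123 and 167 reads in C57BL/6, or 1.51, 1.04 and 1.22 CPM against 4.19, 4.55 and 4.72 CPM. The lowest C57BL/6 library was well above the highest BALB/c library, and the log2FC was 1.83 (SE 0.17, adjusted p = 1.94e-05, edgeR), a 3.56-fold higher level. The alternative settings gave 1.54 to 1.97, and the value passed in each. At 5.06 ± 1.06 TPM in BALB/c and 16.5 ± 1.38 TPM in C57BL/6 (SD, n = 3) it remained far below the somatic Cox6b1, at 572 and 435 TPM. Cox6b2 lies on the same chromosome at chr7:4754789-4756093 (GRCm39, reverse strand), with no annotated gene overlapping it.

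Cox7a2l, a relative of the VIIa subunits that takes part in joining complexes III and IV into supercomplexes, was also higher in C57BL/6. It was at 173, 180 and 185 CPM in BALB/c and 229, 242 and 233 CPM in C57BL/6. The strains did not overlap, and the log2FC was 0.39 (SE 0.04, adjusted p = 5.40e-05, edgeR), a 1.31-fold higher level. The value lay between 0.21 and 0.41 over the alternative settings and passed in each, so it was higher in C57BL/6 under each scaling tried. C57BL/6 mice are known to carry an allele of Cox7a2l that encodes a shorter protein than that of some other strains. Which allele the BALB/c cells carry was not examined, so no strain difference in the protein is implied here. Cox7a2l spans chr17:83765970-83824759 in GENCODE (GRCm39, reverse strand), where Eml4 on the other strand and non-coding genes on both strands overlap it. The Cox7a2l window printed above follows the RefSeq start and lies inside this span.

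The other variants were at or near 0. Cox8b and Cox6a2, the muscle forms of subunits VIII and VIa, had 0 reads and 1 to 3 reads per library. Cox4i2, a form of subunit IV found in lung, had at most 2 reads, and the testis forms Cox7b2 and Cox8c had 0 reads in all libraries. These 5 genes, with Ndufa4l2, Ndufb4b and Ndufa11b (0 reads), make up the 8 members without enough reads for a test, with at most 8 reads in a library.

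**Figure D4:**
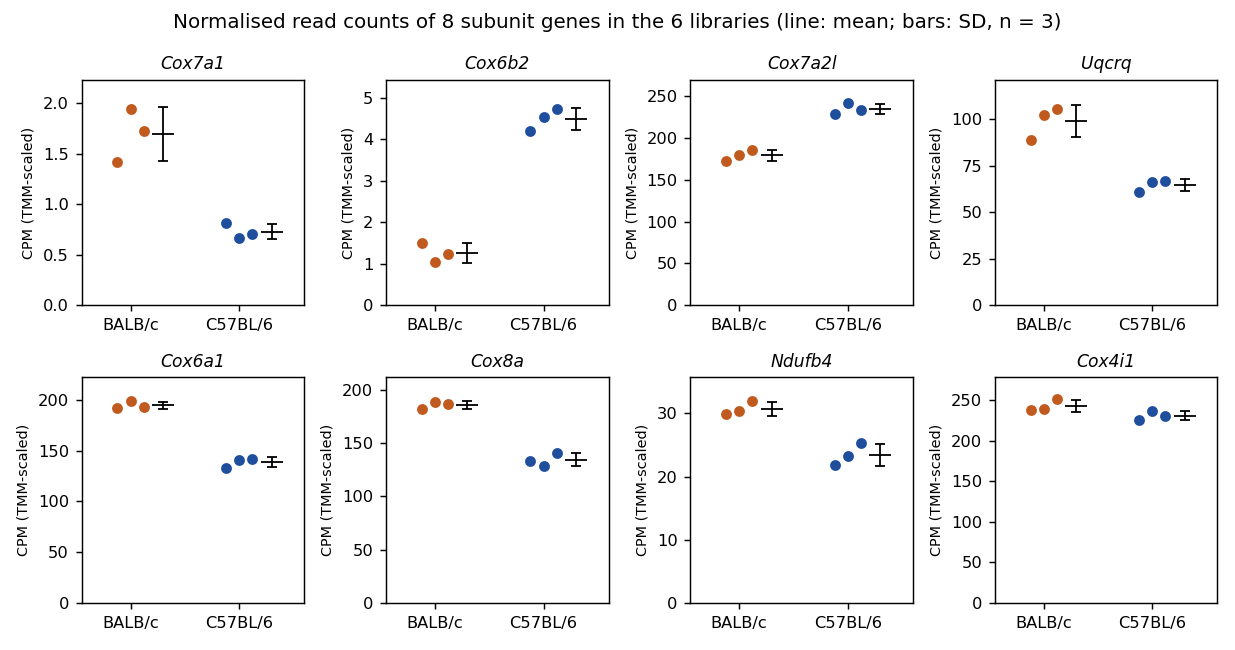
Normalised read counts (CPM, vertical axes starting at 0) of 8 subunit genes in the 3 BALB/c (orange) and 3 C57BL/6 (blue) libraries, with the mean and SD beside the points. Cox7a1, Uqcrq, Cox6a1, Cox8a and Ndufb4 are lower in C57BL/6 with no overlap, Cox6b2 and Cox7a2l are higher with no overlap, and Cox4i1 differs least (226 to 237 against 237 to 251 CPM).

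Complex V, the ATP synthase, had 17 members, all tested. Every one had a log2FC below 0, with a median of -0.14. As lower, 10 passed (58.8%, against 25.9% of all genes tested), and none passed as higher (against 27.0%). The catalytic subunits Atp5a1 and Atp5b had the highest counts of all members. Atp5a1 was at 690, 689 and 715 CPM in BALB/c and 589, 576 and 609 CPM in C57BL/6, and Atp5b at 685, 658 and 693 CPM and 585, 597 and 610 CPM. Neither gene overlapped between the strains, at log2FC values of -0.24 (adjusted p = 0.000520, edgeR) and -0.19 (adjusted p = 0.00232, edgeR). These 2 were named for their counts after their values were seen.

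Among the membrane subunits, Atp5mpl was lowest at -0.35, followed by Atp5k at -0.31, and Atp5g1, Atp5g2 and Atp5g3, which encode the same c-ring protein with different import signals, fell by 0.23, 0.11 and 0.21 on the log2 scale. Atp5d, Atp5j2 and Atp5o were also lower. Atp5e, the small epsilon subunit and the most abundant complex V member per length (602 TPM), was not called at -0.12 (adjusted p = 0.11, edgeR), and passed without S9 (-0.18, adjusted p = 0.0111, edgeR). Also not called were Atp5c1, Atp5h, Atp5j, Atp5l, Atp5md and Atp5pb, between -0.13 and -0.04.

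Isoforms were compared in the 37 members with several transcripts and at least 100 reads on average. In a fit over all transcripts, 137 member transcripts were tested. Past an adjusted p of 0.05 and 2-fold, 1 was higher in C57BL/6 (3.64% of all transcripts tested passed) and none was lower (2.68% of all passed), with 5 and 1 at an unadjusted p under 0.05 and 2-fold (edgeR). No other tool was run on transcripts. The 1 that was higher is a Cox6b1 transcript of 386 bases that RefSeq lists as non-coding. It had 9, 2 and 5 reads in BALB/c and 77, 57 and 72 reads in C57BL/6, with a log2FC of 3.71 (SE 0.65, adjusted p = 0.0194, edgeR). It took 0.134% of the Cox6b1 reads in BALB/c and 2.19% in C57BL/6. The call was lost when S10, S12, S13 or S14 was left out.

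A second non-coding transcript, of 527 bases and belonging to Uqcr10, had 3, 4 and 0 reads in BALB/c and 81, 60 and 74 reads in C57BL/6, but did not pass (log2FC 4.84, SE 1.20, adjusted p = 0.0583, edgeR). The 1 transcript of Cox7a1 in the tables, of 393 bases, missed the threshold in the noisier transcript fit (log2FC -1.23, adjusted p = 0.0988, edgeR). Salmon divides a read that fits several isoforms between them, so the count of an isoform is less certain than that of its gene.

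Atp5g1 was the 1 member in which an isoform with over 5% of the reads changed its share by over 5 percentage points without overlap, and it was chosen after its values were seen. Its second isoform, of 805 bases, took 14.6%, 11.5% and 15.2% of the Atp5g1 reads in BALB/c and 29.7%, 24.4% and 26.0% in C57BL/6. The main isoform, of 798 bases, took 85.0 ± 2.02% and 71.0 ± 3.92% (SD, n = 3). The main isoform was lower in C57BL/6 (log2FC -0.51, SE 0.06, adjusted p = 0.00578, edgeR) and the second was higher (0.70, SE 0.14, adjusted p = 0.0287, edgeR), while the gene as a whole was lower.

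**Figure D5:**
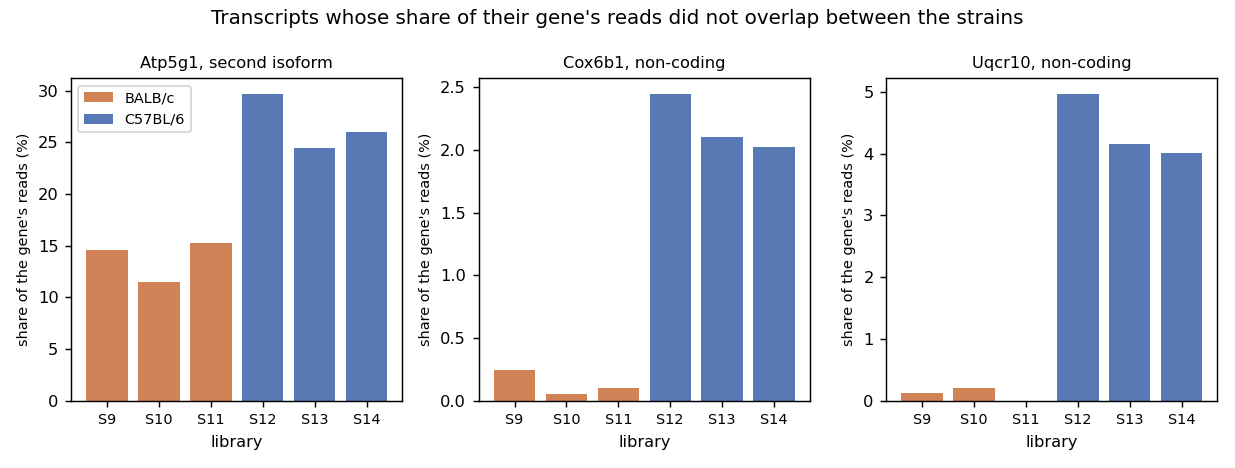
Share of the reads of a gene (vertical axes, %) that went to the second isoform of Atp5g1 and to the non-coding transcripts of Cox6b1 and Uqcr10 in each library (horizontal axes), with BALB/c in orange and C57BL/6 in blue. In all 3 panels the C57BL/6 bars stand above the BALB/c bars, and the non-coding transcripts stay below 5% of their gene.

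Shared sequence was checked because many subunit genes have processed copies in the genome. With words of 31 bases of GENCODE transcripts, 33 of the 91 members shared at least 25% of words with some gene, in either direction, and 8 with a gene that is in the transcript tables. Only genes in the transcript tables could be summed with a member, so copies absent from them were not covered. With these reads summed, 53 members were called lower and 3 higher. Of the named members only Ndufb4 and Ndufa11 had such a partner, and neither changed its call. The partner of Ndufa11, Ndufa11b, had 0 reads, so the sum could change little for that gene.

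The genes that build the complexes, a list of assembly factors, were called in both directions. Of 52 assembly factors 51 were tested, and 15 were lower (29.4%, against 25.9% of all genes tested) and 6 higher (11.8%, against 27.0%) in C57BL/6, with a median log2FC of -0.09. The 1 past 2-fold was Ndufaf2, a chaperone known to bind complex I late in its assembly. It had 10, 3 and 10 reads in BALB/c and 253, 216 and 300 reads in C57BL/6, or 0.227 ± 0.112 and 8.13 ± 0.304 CPM (SD, n = 3). The log2FC was 5.11 (SE 0.22, adjusted p = 1.97e-07, edgeR). It spans chr13:108139249-108295189 (GRCm39, reverse strand) and overlaps other genes on both strands. Whether strain differences in its sequence affect the reads assigned to it was not tested.

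Regulators of mitochondrial gene expression, a list of 20 with the coactivators Ppargc1a and Ppargc1b, Nrf1, Gabpa, Yy1, Tfam and the mitochondrial polymerases, were also compared. Of the 19 tested, 6 were lower (31.6%, against 25.9% of all genes tested) and 2 higher (10.5%, against 27.0%) in C57BL/6, with a median log2FC of -0.12. Polg, the catalytic subunit of the mitochondrial DNA polymerase, was the 1 past 2-fold. It was at 11.6, 12.7 and 17.4 CPM in BALB/c and 5.38, 8.94 and 6.02 CPM in C57BL/6. The strains did not overlap, though replicates varied more than those of the subunits, and the log2FC was -1.05 (SE 0.21, adjusted p = 0.00230, edgeR). Polg overlaps Fanci on the other strand.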

How the data were processed

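RNA of 3 BALB/c and 3 C57BL/6 BMMC libraries was analysed, grouped by their titles. Per the study's methods, the authors checked reads with FastQC 0.11.5 and assigned them with Salmon 0.8.2. The methods name Ensembl GRCm39, while the deposited tables list RefSeq transcripts. Reads of both strains were assigned to the same transcripts, and the part of sequence differences between the strains in the counts was not tested. The deposited estimated counts can be fractions of a read, and in the deposited TPM values they are divided by effective length.

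Transcripts were matched to symbols, version removed, through a RefSeq table of GRCm38.p6 (106440 of 129698, 82.1%); the unmatched ones held 2.69% to 3.12% of reads and were left out. Counts were summed per gene, rounded and tested with edgeR 4.0.16 (R 4.3.3), quasi-likelihood test, TMM, minimum count of 10, Benjamini-Hochberg adjustment over all 12461 genes. Libraries held 28273365 to 37100869 reads on genes, and tested members had 18 to 26866 reads in a library. On simulated counts for 12318 genes of this comparison, 195 of 200 genes changed 4-fold were recovered, with 2 false calls. A call there required an adjusted p under 0.05 and a 2-fold change. Changes as small as those of most members, called by adjusted p alone, were not simulated.

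Alternatives were DESeq2 1.42.0 with and without a length offset, DESeq2 size factors, upper-quartile and plain library size, no filter and 10 reads in every library, tests of log2(TPM) with limma 3.58.1 and a pseudocount of 1 or 0.1, unmatched transcripts kept, genes sharing sequence summed, and each library left out. Named members are those past 2-fold, the 6 largest changes in each direction past adjusted p alone, the tissue variants, the most and least abundant of each complex, complex II, Cyc1, Cycs, and those with a transcript past both thresholds or a call changed by shared sequence. In the other lists, those past 2-fold are named. Members, lists and rules were chosen with earlier results of these data known. Cox6c2 and Ndufs6b, which match the rule, were not analysed here. The values of 1 tested member, which is included in the counts and sums, are not reported here.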

Additional observations from a re-analysis of the deposited data

How the results depend on the processing

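The number of members lower in C57BL/6 went from 53 to between 43 and 60 when a library was left out, and to 73 with plain library size and 78 with limma on log2(TPM + 1) or log2(TPM + 0.1), settings that move the median of all genes by over 0.1. The members' median log2 fold change was -0.32, -0.36 and -0.37 in these 3 settings, and between -0.20 and -0.17 with a library left out. Ndufb1, positive otherwise, was at -0.0205 in both limma settings, Sdha at -0.0728 (plain library size), -0.104 and -0.105, and Uqcrh at -0.0492, -0.0903 and -0.0905. By construction these scales lack the TMM correction. The number of member transcripts higher in C57BL/6 past both thresholds was 0 to 1 with a library left out, and that of transcripts lower in C57BL/6 was 1 when 10 reads in every library were required, which leaves fewer transcripts to adjust for. Cox6b2 and Cox7a1 passed both thresholds in every setting. Over the named members, 393 values kept their direction and side of the threshold, 10 passed newly, 14 no longer passed and 8 changed sign. Cox7a1 and Cox6b2 rest on 18 to 167 reads per library, and the part of depth in their spread was not tested. No paired analysis was possible because the libraries of the strains share no replicate number.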

Other observations

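Genes of the mitochondrial ribosome and the citric acid cycle were more often lower than higher in C57BL/6 BMMCs, as the subunits were. All 78 genes of the mitochondrial ribosome, which makes the subunits encoded in mitochondrial DNA, were tested, and 32 were lower and 3 higher in C57BL/6 BMMCs, with a median log2FC of -0.14 and a middle range of -0.22 to -0.02. Mrpl20, a protein of the large subunit of that ribosome, was the 1 past 2-fold. It had 194, 105 and 206 reads in BALB/c and 42, 42 and 16 reads in C57BL/6. The strains did not overlap, and the log2FC was -2.22 (SE 0.36, adjusted p = 0.000797, edgeR). Of 18 genes of the pyruvate dehydrogenase complex and the citric acid cycle, which supply the chain with NADH and succinate, 7 were lower and 1 was higher, with a median of -0.11, and none passed 2-fold. Among all genes tested, 25.9% were lower and 27.0% higher, with a median of -0.01.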
